A study of Mus musculus with 12 samples.

Results

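The 40 genes described here were listed as genes of brain vessel walls and their lining. Which cells of the hippocampus their counts came from was not measured. The lists comprise 14 genes of mural cells that lie outside the contractile apparatus, 8 genes of pericytes, 12 genes of capillary endothelium and 6 genes of arterial endothelium. The genes were taken by symbol from a table of 33250 gene symbols, and all 40 were among the 19325 genes with enough counts to be tested. The rule names them by symbol with no threshold on a measured value, but the names were picked with earlier results of these libraries known.

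RNA was measured in bulk hippocampus of adult male mice, with 6 wild-type (WT) libraries and 6 libraries labelled as a conditional knockout (cKO) of the microRNA (miRNA) cluster miR379-410. Per the design text, the deletion was made by Cre in cells positive for Emx1, a transcription factor of the dorsal forebrain that marks the lineage of its glutamatergic neurons. The labels and design text do not give the strain, the age in weeks, or whether the WT animals carried Cre or a floxed allele. Each library is labelled as a different animal, and the libraries held between 42360624 and 51095816 counts.

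Endothelial cells line every vessel and, in the brain, join through tight junctions into the blood-brain barrier. Pericytes lie along capillaries and need platelet-derived growth factor from the endothelium, while smooth muscle cells wrap arteries and arterioles and set their width. Notch signals between endothelium and mural cells maintain arterial smooth muscle, and nitric oxide relaxes it through cyclic GMP.

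Several facts about the libraries touch the values below. Smooth muscle and pericyte markers (Acta2, Myh11, Pdgfrb, Rgs5, Kcnj8, Vtn) and endothelial markers (Cldn5, Pecam1, Cdh5, Flt1) were detected in every library. Markers of hippocampal glutamatergic neurons summed to between 6080 and 6830 scaled counts (CPM, the count of a gene set against a common library total) in WT and between 5750 and 6680 CPM in cKO. The summed level of choroid plexus genes ranged from 88.2 to 8320 CPM in WT and from 57.2 to 5580 CPM in cKO, and it was low in WT 2, WT 3 and cKO 4. The library labelled cKO 1 sat with the WT libraries in 3 transcripts that set the others apart. Emx1 stood at 9.14 CPM there, with the remaining cKO libraries between 5.91 and 6.84 CPM and WT between 8.38 and 9.60 CPM. B830012L14Rik, an RNA of the imprinted region that holds the cluster, stood at 0.788 CPM, with the remaining cKO libraries between 17.4 and 25.8 CPM and WT between 0.310 and 0.865 CPM. Gm37899 stood at 1.96 CPM in that library and between 6.13 and 8.19 CPM in the remaining cKO libraries. Mirg, a transcript of the same region, ranged from 28.4 to 34.1 CPM in WT and from 23.6 to 46.4 CPM in cKO, and the miRNAs themselves were not measured in these polyA libraries.

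Most of the 40 genes had a slightly higher level in cKO, and none passed the threshold. In edgeR's quasi-likelihood fit of 6 cKO against 6 WT, 37 members had a log2 fold change above 0 and 3 below it, with a median of 0.12. Over all genes tested, 10325 of 19325 (53.4%) were above 0 and the median was 0.01. At a Benjamini-Hochberg adjusted p under 0.05, edgeR called 0 of 40 members, where it called 0.0103% of all genes tested. At an unadjusted p under 0.05, 13 members were higher and 0 lower, against 3.2% of all genes higher and 6.34% lower. DESeq2, run as another tool, called 3 members higher (Aoc3, Jph2 and Notch3), where it called 0.436% of the genes it adjusted in either direction and 0.138% higher, and limma-voom called 0 members. The count of 13 was 6 without WT 2, WT 3 and cKO 4 (Aoc3, Jph2, Crispld2, Kcnmb1, Slc38a11 and Notch3), so that no endothelial gene was left in it. It was 4 without the library labelled cKO 1 as well (Aoc3, Jph2, Kcnmb1 and Notch3). Of all genes, 1457 of 19591 stood at that p, in either direction, in the former fit. In the latter 1959 of 19443 did, so the 4 of 40 members lay near the share of all genes. With the choroid plexus level as a covariate, the count was 13 (2140 of 19325 genes), and 37 members were above 0. With the summed meningeal fibroblast level as a covariate, 16 members stood at that p in either direction (1931 of 19325 genes), and 35 members were above 0. Kdr was among the 16 but lower in cKO, with a log2 fold change of -0.17 (edgeR unadjusted p = 0.0411). Given how the members were picked, their common direction is a description and not independent evidence. In bulk tissue, fewer or more cells of a type and less or more RNA per cell cannot be told apart.

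**Figure D1:**
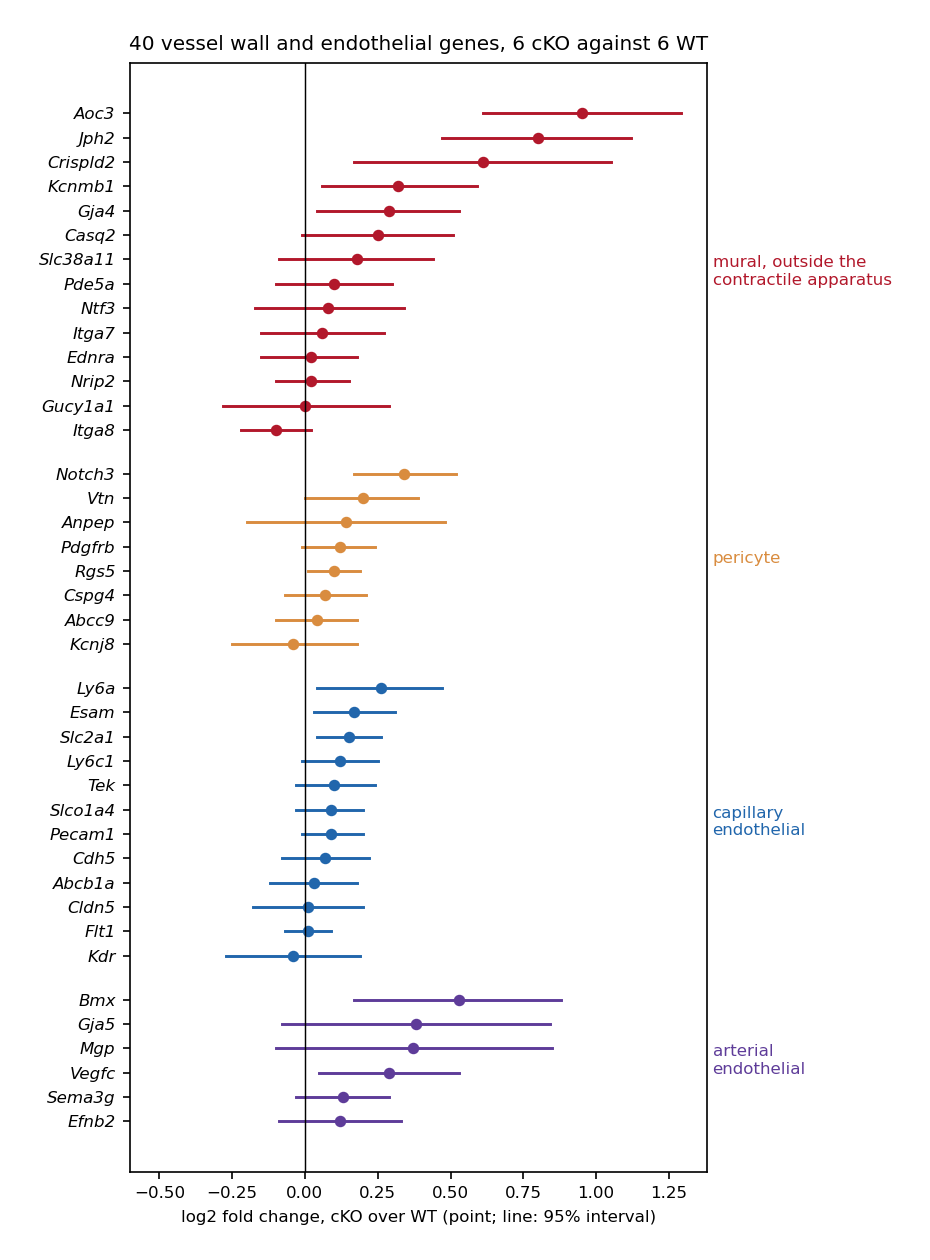
Log2 fold change of each of the 40 genes, cKO over WT, from edgeR's fit (x axis); points are estimates and lines their 95% intervals, with genes ordered by size within the 4 lists. Aoc3 and Jph2 lie farthest to the right at 0.95 and 0.80, and most capillary endothelial and pericyte genes lie within 0.2 of 0.

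The levels of the members spanned a wide range when set per length. Per kilobase of the longest annotated transcript, Vtn, which encodes the matrix protein vitronectin, was highest in WT at 34.5 ± 3.56 CPM per kilobase (SD, n = 6). Ly6c1, Mgp, Slc2a1, Rgs5 and Cldn5 followed at 27.0, 26.9, 24.0, 22.7 and 21.3 CPM per kilobase. Jph2 and Gja5 were lowest at 0.183 ± 0.0406 and 0.125 ± 0.05 CPM per kilobase. Of 39 pairs of neighbours in this order, 32 had overlapping WT ranges, so only a few steps in the order exceeded the spread between animals. The larger differences between genotypes lay among the low genes. The 10 members under 1 CPM per kilobase in WT had a median standard error (SE) of 0.14 around a median log2 fold change of 0.35, and the other 30 had a median SE of 0.08 around 0.10.

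The largest differences lay among the mural genes. Of 14, 13 had a log2 fold change above 0, with a median of 0.14 and a range from -0.10 to 0.95. At an unadjusted p under 0.05 stood Aoc3, Jph2, Crispld2, Kcnmb1 and Gja4, all higher in cKO, and 0 mural genes passed edgeR's adjusted threshold. In Aoc3 and Jph2 the groups did not overlap. Among all genes tested, 0.181% had every cKO library above every WT library and 0.223% every cKO library below.

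Aoc3 encodes an amine oxidase of the smooth muscle and endothelial surface, also known as vascular adhesion protein, and lies on chromosome 11 (GRCm38, 101330605 to 101341938, plus strand). Its level was 1.07 CPM in the lowest, 1.45 CPM in the median and 1.83 CPM in the highest WT library. In cKO the lowest, median and highest were 2.02, 2.92 and 3.61 CPM. Every cKO library was above every WT library. The fold was 1.93, a log2 fold change of 0.95 ± 0.16 (SE) with a 95% interval from 0.61 to 1.29, at an edgeR adjusted p of 0.115. It had the fourth smallest p of all genes tested (rank 4), on 54 to 184 counts per library. With DESeq2 the adjusted p was 8.34e-05 and with limma-voom 0.151.

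Aoc3 was also compared with other vessel genes inside each library. Its level was between 1.22% and 1.78% of that of Rgs5, a regulator of G protein signalling in pericytes, in WT, and between 2.02% and 3.57% in cKO. Against Cldn5, the claudin of endothelial tight junctions, it was between 3.78% and 6.13% in WT and between 7.86% and 12% in cKO. The ranges did not overlap in either ratio. This is not separate evidence, since the levels of Aoc3 did not overlap and Rgs5 and Cldn5 had log2 fold changes of 0.10 and 0.01. Rgs5 itself was between 258% and 397% of Cldn5 in WT and between 285% and 388% in cKO, with ranges that overlapped almost whole.

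Jph2 encodes junctophilin, which ties the plasma membrane to the sarcoplasmic reticulum in muscle, and lies on chromosome 2 (163336242 to 163397993, minus strand). Its lowest, median and highest levels were 0.638, 0.706 and 1.10 CPM in WT and 1.11, 1.36 and 1.52 CPM in cKO. The groups did not overlap, but WT 2 at 1.10 CPM came close to the lowest cKO library, the one labelled cKO 1, at 1.11 CPM. The fold was 1.74 and the log2 fold change 0.80 ± 0.15 (SE; 95% interval 0.47 to 1.12), at an edgeR adjusted p of 0.194, on 31 to 76 counts per library. DESeq2 gave an adjusted p of 0.00612 and limma-voom 0.185.

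Crispld2 encodes a secreted cysteine-rich protein. Its lowest, median and highest levels were 1.77, 3.05 and 4.06 CPM in WT and 3.50, 4.16 and 6.40 CPM in cKO, and the groups overlapped. The log2 fold change was 0.61 ± 0.21 (SE), at an edgeR adjusted p of 0.375. Kcnmb1, the accessory subunit of the calcium-activated potassium channel of smooth muscle, ranged from 1.12 to 1.46 CPM in WT (median 1.25) and from 1.20 to 1.91 CPM in cKO (median 1.58). In 5 of 6 cKO libraries it exceeded the highest WT library. Its log2 fold change was 0.32 ± 0.12 (SE), at an edgeR adjusted p of 0.442.

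The other mural genes differed less. Gja4, a connexin of vessel gap junctions, had a log2 fold change of 0.29 (edgeR adjusted p = 0.463), Casq2, the calcium buffer of the sarcoplasmic reticulum, 0.25 (0.539), and Slc38a11, of an amino acid transporter family, 0.18 (0.692). Without WT 2 alone Slc38a11 stood at 0.29. Pde5a, which breaks down cyclic GMP, was at 0.10 (0.03 without WT 3 alone and 0.06 without the library labelled cKO 1), and the neurotrophin gene Ntf3 at 0.08. Itga7, a laminin-binding integrin subunit, was at 0.06, and Ednra, the endothelin receptor of smooth muscle, and Nrip2, a nuclear receptor interactor, were both at 0.02. Gucy1a1, a subunit of the nitric oxide receptor guanylyl cyclase, was at 0.00 ± 0.13 (SE), with a 95% interval from -0.28 to 0.29, and Itga8, another integrin subunit, at -0.10. The adjusted p-values of these 7 lay between 0.590 and 0.993.

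**Figure D2:**
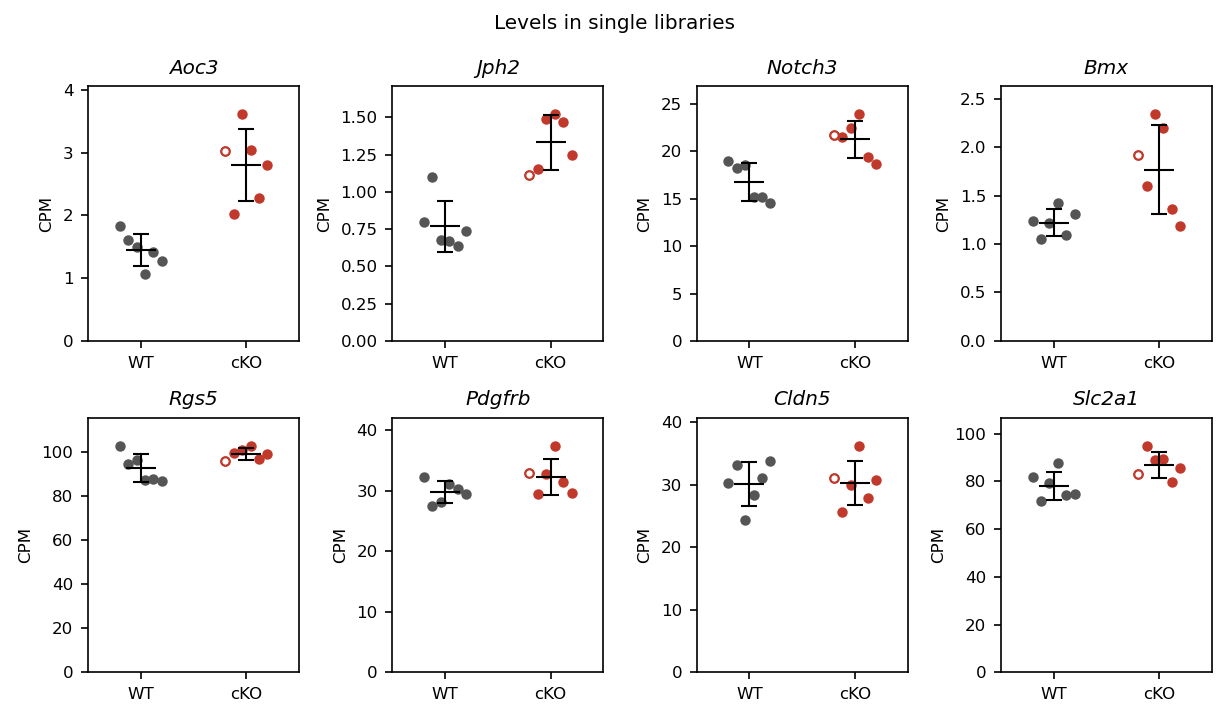
Levels (CPM, y axes from 0) of 8 members in each library; grey points are WT, red points cKO, the open red circle is the library labelled cKO 1, and bars give the mean ± SD of 6 libraries. WT and cKO points do not overlap for Aoc3 and Jph2, overlap in 1 cKO library for Notch3 and in 2 for Bmx, and overlap widely for Rgs5, Pdgfrb, Cldn5 and Slc2a1.

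The contractile genes of smooth muscle serve as a reference for the mural list. All 12 contractile genes were above 0, with a median of 0.73, and Acta2, the smooth muscle actin, stood at 0.97 (edgeR adjusted p = 0.126). This list, too, was drawn up with results of these libraries known. In it 7 genes had groups that did not overlap, against 2 of the 14 mural genes outside the apparatus, and 0 of 12 passed edgeR's adjusted threshold. The difference between the lists was not tested. Counted together, the 14 mural genes summed to between 144 and 160 CPM in WT and between 150 and 165 CPM in cKO, and the contractile genes to between 93.6 and 139 CPM in WT and between 146 and 212 CPM in cKO. The mural sum was mostly that of Gucy1a1, Itga7, Itga8, Nrip2 and Pde5a, with WT means of 35.9, 34.1, 24.2, 22.9 and 13.1 CPM. Aoc3 and Jph2, at 1.45 and 0.769 CPM, hardly entered it. Which cells of the hippocampus the counts of these genes came from was not measured.

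Pericyte genes lay close to 0, apart from Notch3. Of 8, 7 had a log2 fold change above 0, with a median of 0.11 and a range from -0.04 to 0.34. Notch3, Rgs5 and Vtn stood at an unadjusted p under 0.05, and 0 passed the adjusted threshold of edgeR. The median was 0.01 once WT 2, WT 3 and cKO 4, low in choroid plexus genes, were left out, and 0.06 without cKO 4 alone. With all libraries kept and the choroid plexus level as a covariate, Notch3, Vtn, Pdgfrb and Rgs5 stood at 0.36, 0.20, 0.12 and 0.10. Why these settings differed was not tested.

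Notch3 encodes the Notch receptor of mural cells and lies on chromosome 17 (32120820 to 32166852, minus strand). Its lowest, median and highest levels were 14.5, 16.7 and 19.0 CPM in WT and 18.7, 21.6 and 23.9 CPM in cKO. In cKO, 5 of 6 libraries were above the highest WT library, WT 1, and cKO 6 was just below it. The fold was 1.27 and the log2 fold change 0.34 ± 0.08 (SE; 95% interval 0.17 to 0.52), at an edgeR adjusted p of 0.314 and a DESeq2 adjusted p of 0.0259. An antisense gene, Gm17276, shares 488 exonic bases with it and had a mean of 41.1 counts per library, against 711 to 1147 for Notch3, and without a stated strand setting their reads cannot be told apart.

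Rgs5 ranged from 87.1 to 103 CPM in WT (median 91.4) and from 96.0 to 103 CPM in cKO (median 99.5), a log2 fold change of 0.10 ± 0.04 (SE) at an edgeR adjusted p of 0.498. The cKO libraries all lay inside the WT range. Vtn ranged from 53.2 to 69.1 CPM in WT (median 58.2) and from 60.2 to 82.3 CPM in cKO (median 64.6), with a log2 fold change of 0.20 and an edgeR adjusted p of 0.520. It was 0.13 without the library labelled cKO 1 alone. Its highest libraries were those labelled cKO 1 and cKO 4, at 82.3 and 80.5 CPM, and without these and WT 2 and WT 3 its log2 fold change was 0.00. Pdgfrb, the receptor for platelet-derived growth factor on mural cells, ranged from 27.5 to 32.3 CPM in WT (median 29.8) and from 29.5 to 37.4 CPM in cKO (median 32.1). The groups overlapped, at a log2 fold change of 0.12 ± 0.06 (SE; edgeR adjusted p = 0.569). It was 0.07 without cKO 4, the highest library, 0.02 without WT 2, WT 3 and cKO 4, and 0.00 without those and the library labelled cKO 1.

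Kcnj8 and Abcc9 encode the pore and the sulfonylurea receptor of the ATP-sensitive potassium channel of pericytes, and lie 16247 bases apart on chromosome 6. Kcnj8 ranged from 2.14 to 2.75 CPM in WT (median 2.56) and from 2.21 to 3.02 CPM in cKO (median 2.38), a log2 fold change of -0.04 with a 95% interval from -0.25 to 0.18. Abcc9 ranged from 8.78 to 10.8 CPM in WT (median 9.54) and from 8.99 to 10.7 CPM in cKO (median 9.97), a log2 fold change of 0.04 with an interval from -0.10 to 0.18. Neither differed beyond the spread between animals. Cspg4, the proteoglycan NG2 of pericytes and oligodendrocyte precursors, was at 0.07, and Anpep, a surface peptidase, at 0.14. Anpep was spread widest in cKO, from 3.46 CPM in cKO 2 to 7.20 CPM in cKO 4, and it stood at 0.24 without cKO 2, at 0.05 without the library labelled cKO 1, at 0.06 without cKO 4 and at -0.05 without WT 2, WT 3 and cKO 4.

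Capillary endothelial genes showed the smallest differences. Of 12, 11 had a log2 fold change above 0, but the median was 0.09 and the range ran only from -0.04 to 0.26. At an unadjusted p under 0.05 stood Slc2a1, Esam and Ly6a, and 0 passed edgeR's adjusted threshold. Without WT 2, WT 3 and cKO 4, 7 of 12 were above 0 with a median of 0.04, and without cKO 4 alone the median was 0.06. With all libraries and the choroid plexus level as a covariate, Slc2a1, Esam and Ly6a stood at 0.15, 0.17 and 0.26.

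Slc2a1, the glucose transporter of the blood-brain barrier, ranged from 71.9 to 87.6 CPM in WT (median 77.0) and from 79.6 to 94.9 CPM in cKO (median 87.3). The groups overlapped, with a log2 fold change of 0.15 ± 0.05 (SE) at an edgeR adjusted p of 0.399. Esam, an adhesion molecule of endothelial junctions, ranged from 11 to 13.7 CPM in WT (median 11.4) and from 12 to 14.3 CPM in cKO (median 13.3), with a log2 fold change of 0.17 and an edgeR adjusted p of 0.442. WT 4 was as high as the cKO libraries and the other 5 lay between 11 and 11.7 CPM.

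Ly6a and Ly6c1 encode lipid-anchored surface proteins of one family and lie 45986 bases apart on chromosome 15. Ly6a ranged from 9.78 to 13.7 CPM in WT (median 12) and from 11.6 to 16.9 CPM in cKO (median 13.7), a log2 fold change of 0.26 at an edgeR adjusted p of 0.447. Ly6c1 ranged from 20 to 24.4 CPM in WT (median 22.9) and from 22.9 to 27.1 CPM in cKO (median 24.3), at 0.12 and an edgeR adjusted p of 0.552. In both genes cKO 2 and cKO 4 were the highest libraries. Reads could be shared between such related genes, which was not measured here.

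Cldn5 differed least among the junction genes. It ranged from 24.3 to 33.7 CPM in WT (median 30.7) and from 25.7 to 36.2 CPM in cKO (median 30.4), a log2 fold change of 0.01 with a 95% interval from -0.18 to 0.20. Cdh5, the cadherin of endothelial junctions, was at 0.07 and Pecam1, another adhesion molecule there, at 0.09. Among receptors, Flt1 and Kdr, which bind vascular endothelial growth factor, were at 0.01 (95% interval -0.07 to 0.09) and -0.04 (-0.27 to 0.19), and Tek, the angiopoietin receptor, was at 0.10 (0.06 without cKO 4). Among transporters, Abcb1a, the drug efflux pump, was at 0.03 and Slco1a4, an organic anion carrier, at 0.09. The edgeR adjusted p was 0.985 for Cldn5 and lay between 0.567 and 0.969 for the other 7.

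All arterial endothelial genes measured had a log2 fold change above 0 (6 of 6), with a median of 0.33 and a range from 0.12 to 0.53, and 0 passed edgeR's adjusted threshold. Bmx and Vegfc stood at an unadjusted p under 0.05. Without WT 2, WT 3 and cKO 4 the median was 0.19, and with the summed fibroblast level as a covariate it was 0.21.

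Bmx, a tyrosine kinase of arterial endothelium on chromosome X (164192842 to 164258193, minus strand), ranged from 1.05 to 1.42 CPM in WT (median 1.23) and from 1.19 to 2.34 CPM in cKO (median 1.76). In 4 cKO libraries it exceeded all WT libraries, and cKO 5 and cKO 6 did not. The fold was 1.44 and the log2 fold change 0.53 ± 0.16 (SE; 95% interval 0.17 to 0.88), at an edgeR adjusted p of 0.357, on 44 to 119 counts per library. Vegfc, a ligand of the vascular endothelial growth factor family, ranged from 2.00 to 2.63 CPM in WT (median 2.28) and from 2.07 to 3.21 CPM in cKO (median 2.97). In cKO 5 it stayed within the WT range, and the log2 fold change was 0.29 ± 0.11 (SE) at an edgeR adjusted p of 0.449.

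Gja5, the connexin of arterial endothelium, was the lowest member and had only 15 to 39 counts per library. It ranged from 0.328 to 0.795 CPM in WT (median 0.383) and from 0.555 to 0.648 CPM in cKO (median 0.598), so all cKO libraries lay inside the WT range. Its log2 fold change was 0.38 ± 0.21 (SE) at an edgeR adjusted p of 0.612. It was 0.60 without WT 6, the highest library, and 0.22 with the summed fibroblast level as a covariate. Its exons share 165 bases with Gpr89 on the other strand, a gene with a mean of 1500 counts. Sema3g, a secreted semaphorin, ranged from 5.33 to 6.99 CPM in WT (median 5.78) and from 6.04 to 7.12 CPM in cKO (median 6.33), at 0.13 and an edgeR adjusted p of 0.618. Efnb2, the ephrin that marks arteries, was at 0.12 (edgeR adjusted p = 0.747), and at 0.03 without cKO 4, its highest library at 57.4 CPM. Mgp, which keeps arteries from calcifying, was at 0.37 (0.633) in all libraries, at 0.24 without WT 3 alone and at 0.10 without WT 2, WT 3 and cKO 4. It was at 0.02 without those and the library labelled cKO 1, and at 0.18 with the summed fibroblast level as a covariate.

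**Figure D3:**
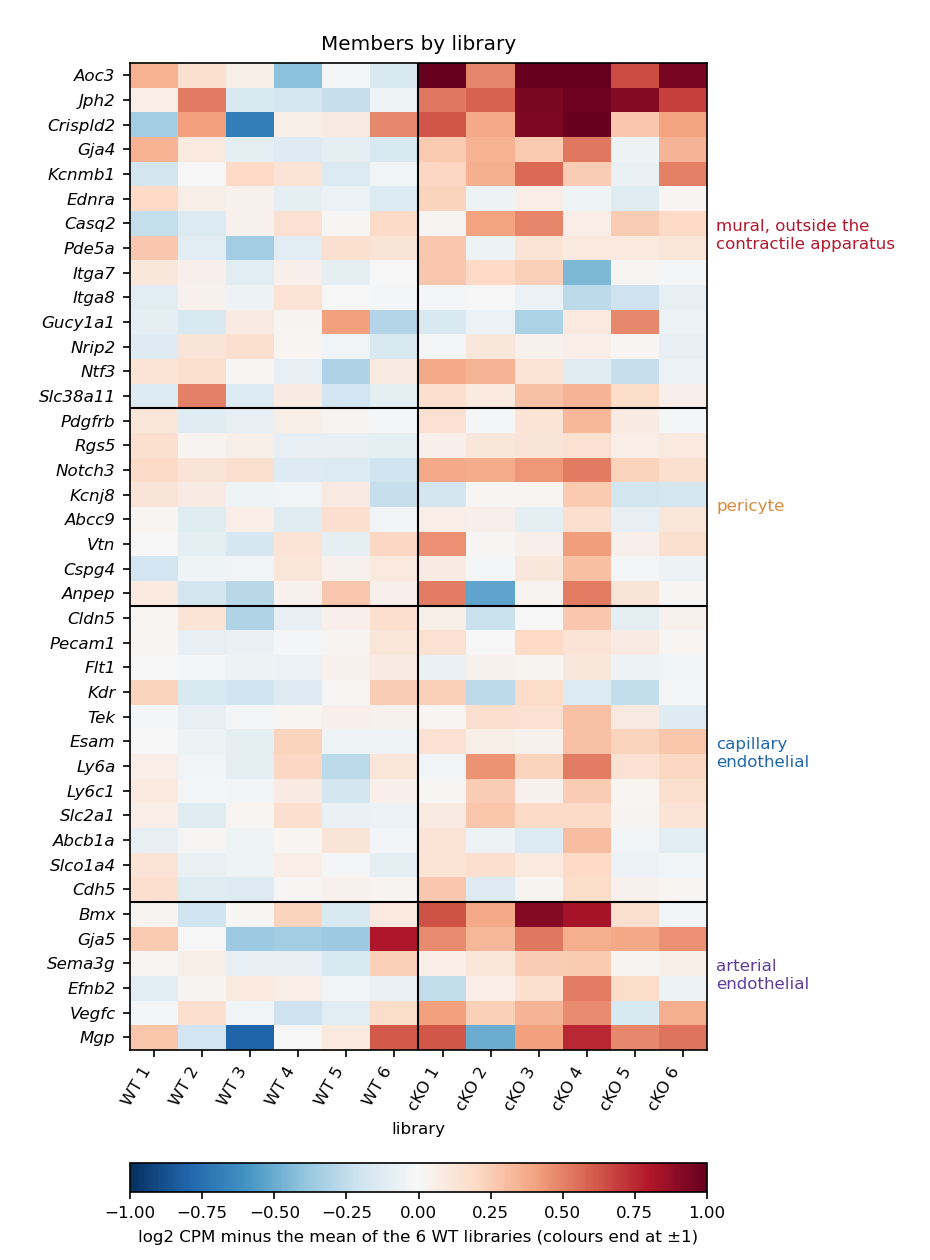
Log2 CPM of each member (rows) in each library (columns) minus the mean of the 6 WT libraries; red is higher and blue lower, and colours end at 1 in either direction. Aoc3 and Jph2 are red in all 6 cKO libraries, as are some other members, among them Crispld2, Notch3 and Gja5. The deepest red over the pericyte and capillary endothelial genes is in cKO 4.

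Libraries of one genotype differed in which list was high. The median log2 difference from the WT mean over the pericyte genes was 0.32 in cKO 4 and between 0.01 and 0.11 in the other cKO libraries. Over the capillary endothelial genes it was 0.23 in cKO 4 and between 0.02 and 0.11 in the others, and over the arterial endothelial genes cKO 4 was highest too, at 0.49. The mural genes had another order, with 0.24, 0.27 and 0.25 in the libraries labelled cKO 1, cKO 2 and cKO 3 and 0.10, 0.06 and 0.09 in cKO 4, cKO 5 and cKO 6. In WT the 4 lists stayed between -0.13 and 0.21.

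**Figure D4:**
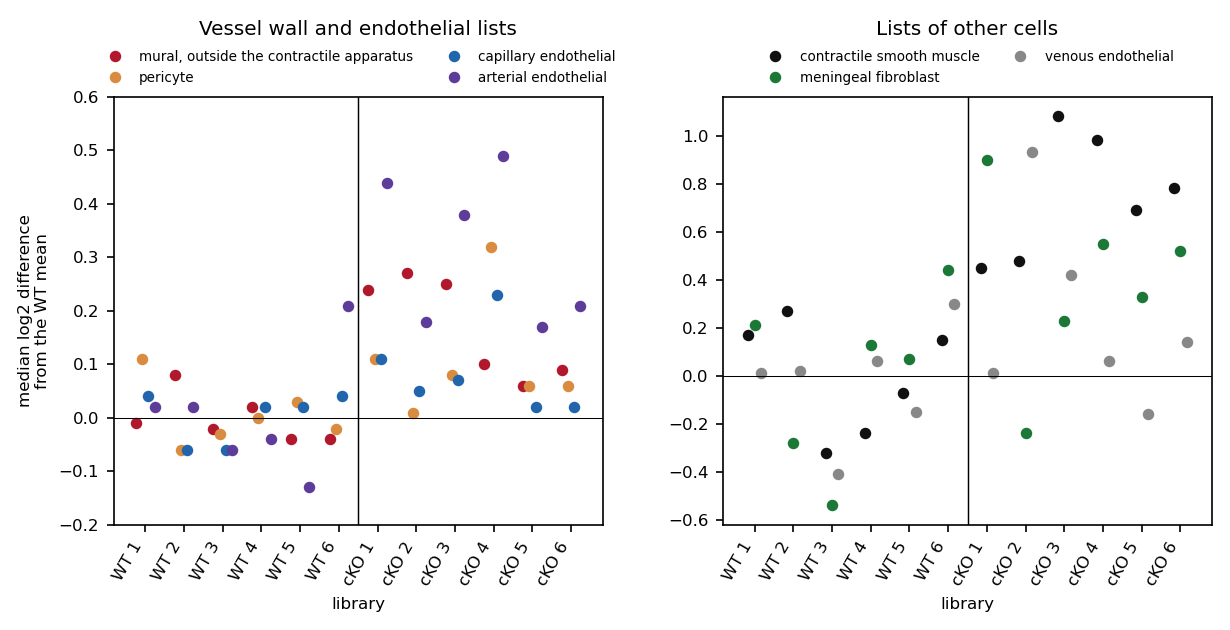
Median log2 difference from the mean of the 6 WT libraries over the genes of a list (y axis), for each library (x axis); the left panel shows the 4 lists described here and the right panel contractile, meningeal fibroblast and venous genes on its own scale. In the left panel cKO 4 is highest for the pericyte, capillary and arterial lists, at 0.32, 0.23 and 0.49, and in the right panel the contractile list is above every WT library in all 6 cKO libraries.

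Markers of other cell types differed between libraries too. All 10 meningeal fibroblast genes were detected in every library and had a log2 fold change above 0, with a median of 0.36, and their sum ranged from 169 to 504 CPM in WT and from 288 to 526 CPM in cKO. All 9 choroid plexus genes were above 0 as well, with a median of 0.35, a smallest edgeR adjusted p of 0.907 and the range of sums given above. The 5 perivascular macrophage genes summed to between 5.82 and 9.75 CPM in WT and between 7.41 and 13.5 CPM in cKO, and the 5 genes of red blood cells to between 176 and 696 CPM and between 330 and 506 CPM. Microglial genes, by contrast, had a median of -0.02 over 6 genes. With the fibroblast sum as a covariate, Aoc3 stood at 0.91, Jph2 at 0.87 and Notch3 at 0.39, with edgeR adjusted p-values of 0.252, 0.252 and 0.343, and the arterial median at 0.21. Without WT 2, WT 3 and cKO 4, Aoc3 stood at 0.97, Jph2 at 0.87 and Notch3 at 0.38, and 30 of the 40 members were above 0. Without the library labelled cKO 1 alone, 34 of 40 were above 0, and Aoc3, Jph2 and Notch3 stood at 0.92, 0.83 and 0.33, with edgeR adjusted p-values of 0.0835, 0.0835 and 0.144. Without all 4 of these libraries, 28 of 40 were above 0, the pericyte median was -0.01 and the capillary median 0.03, and Aoc3, Jph2 and Notch3 stood at 0.94, 0.92 and 0.36.

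**Figure D5:**
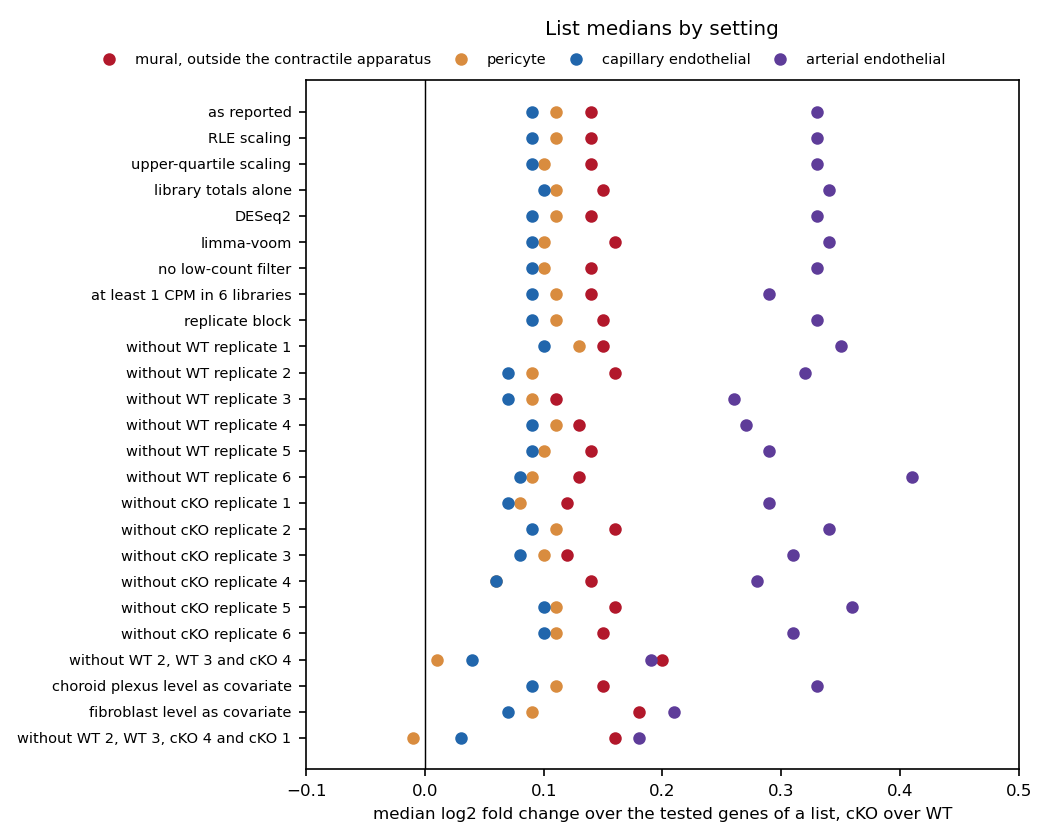
Median log2 fold change over the tested genes of each list (x axis) in edgeR's fit as reported and under each other scaling, tool, filter, covariate or choice of libraries (y axis). The pericyte and capillary medians move to 0.01 and 0.04 and the arterial median to 0.19 without WT 2, WT 3 and cKO 4, while the mural median lies between 0.11 and 0.20 throughout.

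Further genes of the vessel pathways were read from lists that hold none of the 40 members, and edgeR called 0 genes in any of them at an adjusted p under 0.05. Of 15 ligands, 13 were above 0 with a median of 0.11. Pdgfb, the endothelial ligand of Pdgfrb, was at 0.12 (edgeR adjusted p = 0.489) and Vegfb, a growth factor of the same wider family, at 0.07 (0.567). Of 14 receptors, 9 were above 0 with a median of 0.05. S1pr1, the endothelial receptor for sphingosine phosphate, was at -0.12 (0.369) and Ephb4, the venous receptor for Efnb2, at 0.25 (0.453). The largest share of lower values was in the nitric oxide and cyclic GMP path, with 3 of 6 above 0 and a median of 0.00. There Mrvi1, a target of the cyclic GMP kinase, was at 0.43 (0.343), and Prkg1, that kinase, at -0.24 (0.585).

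All 5 Notch target genes were above 0, with a median of 0.06. Hey2 stood at 0.39 (edgeR adjusted p = 0.451) and Heyl at 0.14 (0.664). Of 14 further barrier genes, 10 were above 0 with a median of 0.06, and the smallest p-values were those of Mfsd2a, the lipid carrier of barrier endothelium, at 0.12 (0.453) and Slc7a5, an amino acid carrier, at 0.14 (0.620). Of 9 basement membrane genes, 6 were above 0 with a median of 0.04, among them the laminin chain gene Lama5 at 0.24 (0.785) and Nid1, which links laminin to collagen, at 0.17 (0.704). Of 12 transcription factors of vessel cells, 11 were above 0 with a median of 0.15, and the mural factors Tbx18 and Foxc1 stood at 0.38 (0.395) and 0.37 (0.454). The 6 venous genes tested, of 7 listed, were all above 0 with a median of 0.36. Nr2f2, the factor that sets venous identity, stood at 0.35 (0.454) and Icam1, described below, at 1.07 (0.514). By library, the median log2 difference of this list from the WT mean was 0.93 in cKO 2 and 0.42 in cKO 3. It lay between -0.16 and 0.14 in the other cKO libraries, inside the WT range of -0.41 to 0.30.

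Pairs of partners were compared across animals within each genotype. Over 9 pairs in 2 genotypes (18 relations, 6 libraries each), none passed after Benjamini-Hochberg adjustment, and the smallest adjusted p was 0.075. That relation, between Acta2 and Jph2 in cKO, was added after the data were seen and had a Pearson r of 0.89 (exact permutation p = 0.00417, two-sided) and a Spearman rho of 0.94 (p = 0.0167, adjusted 0.300, exact permutation). Without the 2 libraries farthest from the median of Acta2, r was 0.84. In WT the same genes had an r of 0.83 (exact permutation p = 0.0139, adjusted 0.125) and a rho of 0.77 (exact permutation p = 0.103), with r at 0.92 without the 2 farthest libraries. Kcnj8 and Abcc9, the 2 parts of one channel, had an r of 0.23 in WT (exact permutation p = 0.657, adjusted 0.823; rho 0.20, p = 0.714; r 0.25 without the 2 libraries farthest from the median) and of 0.34 in cKO (exact permutation p = 0.554, adjusted 0.823; rho 0.26, p = 0.658). In cKO, r was -0.79 without the 2 farthest libraries, so the positive value rests on those libraries.

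The miRNAs of the deleted cluster were set against the 3′ untranslated regions (UTRs) of the members, since a miRNA pairs with its targets through its seed, the bases from position 2 to 8. RefSeq (GRCm38.p6) lists 71 mature miRNAs with 64 distinct seeds between positions 109709060 and 109743795 of chromosome 12. Shown are 4 whose seeds match the UTRs of Aoc3 and Notch3, with the seed in capitals, and miR-299b-3p shares the seed of miR-299a-3p.
miR-299a-3p: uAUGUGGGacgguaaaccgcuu
miR-300-5p: uUGAAGAGagguuauccuuugu
miR-376b-3p: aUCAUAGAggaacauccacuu
miR-679-5p: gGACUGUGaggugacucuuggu

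A perfect match to at least 1 of the seeds stood in the longest annotated UTR of 37 of 40 members (92.5%) and of 91.1% of the 15354 tested genes with a UTR. Members had a median of 4.31 matches per kilobase, against 4.01 over all those genes. By list the median was 3.07 for mural, 5.23 for pericyte, 5.85 for capillary endothelial and 2.95 for arterial endothelial genes. UTR matches were counted by letters alone and say nothing of binding.

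The sites of Aoc3, Jph2 and Notch3, the members that DESeq2 called, are shown 5′ to 3′ on the sense strand, with the seed match in capitals and positions counted from the first base after the stop codon (GENCODE, GRCm38). Aoc3 holds 2 matches in 1764 bases.
Aoc3, UTR position 164, miR-299a-3p: ttccttctgtcCCCACATctttgatgtcc
Aoc3, UTR position 1308, miR-300-5p: gagccggtgccCTCTTCAggggcacctaa

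Jph2 holds 5 matches in 1697 bases, each to another seed.
Jph2, UTR position 67, miR-667-3p: cagtgccaagcAGGTGTCccaggaagatg
Jph2, UTR position 101, miR-679-3p: tcggacctaaaACCTTGCtcacatccact
Jph2, UTR position 450, miR-1197-5p: tgggtagtgcaGTCAACCccagcccatgc
Jph2, UTR position 900, miR-541-5p: gtcaagagctgAATCCCTggtgcatactc
Jph2, UTR position 1520, miR-668-3p: aggttcctcggGAGTGACaggccctaggc

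Notch3 holds 2 matches in 1000 bases. The miR-376b-3p match in Notch3 occurs in 10.8% of tested UTRs and in 7 of the 40 members.
Notch3, UTR position 36, miR-376b-3p: agtgacactccTCTATGActtctttcttc
Notch3, UTR position 905, miR-679-5p: tggcacctggtCACAGTCctttgtagctg

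The seeds matched in these 3 genes stood in between 5.13% and 18.7% of tested UTRs. The site for miR-300-5p stood in 18.7% of tested UTRs and in 8 members, that for miR-299a-3p in 13.2% and in 11 members, and that for miR-679-5p in 13.1% and in 3 members.

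Promoters were searched on both strands for 3 motifs, in windows of 300 bases around the start site from RefSeq (GRCm38.p6), which were found for 31 of the 40 members. The CArG box, which serum response factor binds in contractile genes, was in 0 of 31 members and in 1.61% of tested genes with a window. The core of the RBPJ site, through which Notch acts (TGGGAA), was in 10 of 31 (32.3%), against 27.4% of tested genes. The ETS core (AGGAAG), bound by factors of endothelial genes, was in 11 of 31 (35.5%), against 37.5% of tested genes. The shares lay near those of all genes. The windows of Jph2 and Notch3 are shown as those of the members with the smallest p that had one. Jph2 had more than 1 window, of which the first is shown. The ETS core match is in capitals in Jph2 (chr2:163397944-163398243, minus strand), and Notch3 (chr17:32166841-32167140, minus strand) holds none of the 3 motifs.
Jph2: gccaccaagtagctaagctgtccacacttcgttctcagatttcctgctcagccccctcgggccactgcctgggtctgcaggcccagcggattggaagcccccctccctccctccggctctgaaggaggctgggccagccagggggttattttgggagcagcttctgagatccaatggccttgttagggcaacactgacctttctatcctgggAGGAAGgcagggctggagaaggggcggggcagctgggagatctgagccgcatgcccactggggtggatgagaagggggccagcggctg
Notch3: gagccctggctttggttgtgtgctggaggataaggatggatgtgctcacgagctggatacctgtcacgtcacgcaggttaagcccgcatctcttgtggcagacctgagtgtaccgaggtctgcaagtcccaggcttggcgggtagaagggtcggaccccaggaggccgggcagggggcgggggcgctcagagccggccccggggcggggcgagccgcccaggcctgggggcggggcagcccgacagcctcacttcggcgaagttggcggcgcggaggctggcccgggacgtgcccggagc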

How the data were processed

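Bulk hippocampus of 12 mice was measured by polyA RNA sequencing, after Trizol extraction and a NEB Next Ultra library kit per the labels' protocols. The authors deposited expected counts per gene symbol, 1 column per animal; Salmon 1.3.0 and GRCm38 are named in the submitters' processing notes. No source used here gives the transcript annotation, the strand setting or how transcripts were summed. Counts were rounded to whole numbers.

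WT and cKO were compared by edgeR 4.0.16 in R 4.3.3 (quasi-likelihood test) on all 12 libraries, with TMM scaling, filterByExpr (count minimum 10, total 15) and Benjamini-Hochberg adjustment over 19325 genes at 0.05. CPM are TMM-scaled. Differences between libraries use log2 CPM with a prior count of 2. DESeq2 1.42.0, limma 3.58.1 (voom), other scalings and filters, covariates and left-out libraries were tried. Pairs of genes were tested by exact permutation (SciPy 1.17.1). Members had between 15 and 5155 counts per library, but depth alone did not set the precision. Mgp, with 481 to 1463 counts, had an SE of 0.22, and Gja5, with 15 to 39 counts, of 0.21.

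The members and lists were chosen with earlier results of these data known. Values per library were given for the 4 members of each list with the smallest p and for Pdgfrb, Cldn5, Kcnj8, Abcc9 and Gja5, and for each pathway list the 2 genes with the smallest p. Coordinates and UTRs came from GENCODE M21 (GRCm38), promoters and miRNAs from RefSeq (GRCm38.p6). The edgeR step was tested on simulated data. A planned comparison of member proteins was not run. No 2 libraries of a genotype agreed within sampling noise (smallest chi-square per degree of freedom 7.93). P-values of the genotype fits set each difference against the spread between these animals, and those of gene pairs come from permuted libraries.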

Additional observations from a re-analysis of the deposited data

Results flagged for a closer look

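In 7 of 154 groups of 6 libraries, 1 library stood far from the other 5 of its genotype. A rate of 1 in 20 would give about 8 if the groups were independent. All genes share the same 12 libraries, so this comparison cannot say whether any of the 7 arose by chance. Emx1, B830012L14Rik and Gm37899 were scanned as references beside the members. In WT 2, Jph2 was at 1.10 CPM against 0.638 to 0.795 CPM in the other WT libraries, and Slc38a11 at 2.67 CPM against 1.65 to 2.00 CPM. In WT 4, Esam was at 13.7 CPM against 11 to 11.7 CPM. In cKO 2, Mgp was at 13 CPM with the remaining cKO libraries between 24.5 and 30.9 CPM. The library labelled cKO 1 stood apart in Emx1 at 9.14 CPM, in B830012L14Rik at 0.788 CPM and in Gm37899 at 1.96 CPM, each on the side of the WT libraries. Without that library, Aoc3 had a log2 fold change of 0.92 and Jph2 of 0.83, both at an edgeR adjusted p of 0.0835.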

How the results depend on the processing

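The number of members past edgeR's threshold was 0 under every scaling, filter, covariate and choice of libraries tried, and 3 with DESeq2. The number of all genes past it, 2 as reported, was 76 with DESeq2, 0 with limma-voom, 1 without the low-count filter, 1 with at least 1 CPM in 6 libraries and 1 with the choroid plexus level as covariate. It ranged from 0 to 6 when each library was left out in turn, the 6 coming without the library labelled cKO 1. It was 0 when WT 2, WT 3 and cKO 4 were left out, where the pericyte and arterial medians were 0.01 and 0.19, and 7 capillary genes were higher. Added after the data were seen, the fibroblast covariate gave 0 genes. Leaving out the library labelled cKO 1 besides those 3 libraries, also added then, gave 5 genes, 3 pericyte and 7 capillary genes higher, and pericyte, capillary and arterial medians of -0.01, 0.03 and 0.18. The causes were not tested. The labels do not state that the replicate numbers shared by the groups pair the samples. Residuals of same-numbered samples correlated between -0.27 and 0.25, and only number 6 matched its own number best. With so few samples that differ in other ways, these correlations cannot exclude a pairing. With the replicate block, 0 genes and 0 members passed. Aoc3 ranged from 0.86 to 1.02 without single libraries (edgeR adjusted p 0.0541 to 0.402) and Jph2 from 0.75 to 0.91 (0.0587 to 0.548). Counts are lowest for Gja5, Jph2, Casq2 and Bmx.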

Other observations

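Adhesion genes of activated venous endothelium were high in single cKO libraries. Selp, which encodes P-selectin, was at 3.31 CPM (149 counts) in cKO 2 and between 0.0193 and 0.184 CPM in the other 11 libraries, too low for the low-count filter, and was picked out after its values were seen. Icam1, a leukocyte adhesion molecule, was at 18.7 CPM in cKO 2 and 10.4 CPM in cKO 3, against 2.14 to 4.18 CPM elsewhere, with a log2 fold change of 1.07 at an edgeR adjusted p of 0.514. Vcam1, another such molecule, was at 57.9 CPM in cKO 2 and 46.2 CPM in cKO 3, against 20 to 37.0 CPM in the other 10 libraries. In the same cKO 2 library, Mgp and Anpep had their lowest cKO values, at 13 and 3.46 CPM. Other members, among them Aoc3, Vtn, Cldn5 and Cdh5, were also lowest of the cKO libraries there, while Slc2a1 was highest.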
